A study of Homo sapiens with 8 samples.

Results

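The response of gene expression to indisulam was compared between parental Panc10.05 cells and an indisulam-resistant derivative. The compared quantity was the interaction, the log2 change with the drug in resistant cells minus the log2 change with the drug in parental cells. A lower interaction means that a gene went down more, or up less, in resistant cells than in parental cells. It was examined for the 8812 of 60675 listed genes chosen by a mean of at least 10 CPM (the usual depth-scaled count, relative to all reads assigned to genes) over the 8 libraries. That mean was measured in these same libraries, so it is given as a description. The genes nearest to the minimum were OTUD3 at 10.001 CPM inside it and GUSBP1 at 9.9867 CPM outside it. Of the 8812 genes 8612 were protein-coding and 131 were long noncoding RNAs, and they held between 98.3% and 98.7% of the reads of a library. At 10 CPM or more in every group were 8342 genes.

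Panc10.05 is an established human pancreatic cancer line, and both lines derive from it. There were 4 groups of 2 libraries. Parental untreated cells received no drug, and parental indisulam cells received 2 µM for 18 h. Resistant untreated cells had been taken off the drug for 1 week, and resistant indisulam cells were kept on 2 µM throughout. The lines therefore differed in length of exposure and in the untreated reference, never treated or withdrawn, as well as in phenotype. These cannot be told apart in the interaction. A fall with the drug in resistant cells means a lower level on the drug than after withdrawal, and may equally be a rise on withdrawal. The resistant cells arose under rising concentrations of the drug, and no source used here says whether they are 1 clone. Panc10.05 is the line given by the titles, although the growth and treatment labels speak of A549, a lung line. Of 10 markers of ductal epithelium 9 reached 10 CPM, and 4 markers of lung alveolar epithelium summed to at most 0.203 CPM in any library. These markers describe tissues and were not compared with A549 cells, so they do not settle which line was used. The study describes the libraries of a group as technical replicates, so SEs and p-values measure technical spread alone and do not cover the spread between cultures. Reads assigned to genes numbered between 65266253 and 108002436 per library.

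Indisulam tethers RBM39, an RNA-binding protein that takes part in splicing, to DCAF15, the substrate receptor of a ubiquitin ligase, and RBM39 is then degraded. Loss of RBM39 is known for skipped exons and retained introns in many transcripts. Interferon signalling works through receptors that activate transcription factors in the cytoplasm. These bind interferon-stimulated response elements or gamma-activated sites near target genes and induce antiviral effectors and the machinery that shows peptides to T cells.

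The interaction passed the test in 5776 of the 8812 genes (65.5%), by the quasi-likelihood test of edgeR with Benjamini-Hochberg adjustment over all 16661 genes tested, of which 50.1% were called. It was higher in 1652 (18.7%) and lower in 4124 (46.8%). Most differences were small. The median size among the called genes was 0.27 log2 units, 633 called genes passed 0.5, and past 1 log2 unit there were 45 higher and 47 lower. Tested against a minimum of 0.5 log2 units, 226 genes were called, 112 higher and 114 lower.

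The balance of directions among the small differences depended on how libraries were scaled. With TMM scaling over all tested genes, the median interaction of the 8812 genes was -0.11 log2 units and 28.6% of calls were higher. With size factors taken from the 8812 genes themselves, 50.28% of 5272 calls were higher, and with library totals 52.14% of 5236. Medians of gene lists are therefore given relative to the median of all 8812 genes, which takes the scaling out. In the parental line 4453 genes rose (50.5%) and 2164 fell (24.6%), and in the resistant line 2336 rose (26.5%) and 3353 fell (38.1%).

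**Figure D1:**
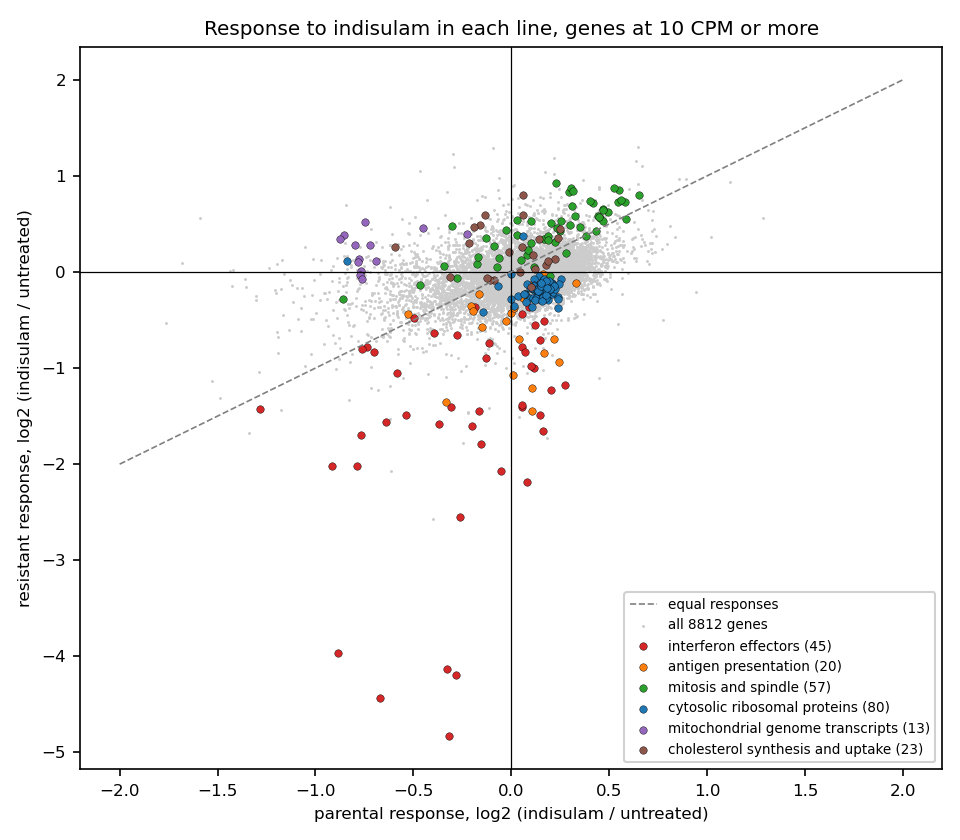
Log2 change with indisulam in parental cells (horizontal axis) against that in resistant cells (vertical axis) for each of the 8812 genes, with 6 gene lists coloured and equal responses on the dashed line. Most interferon effectors lie below the line, down to -4.83 in resistant cells, whereas the 13 mitochondrial genome transcripts lie above it, with a median parental change of -0.77.

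Sorted by response, 1240 genes rose in parental and fell in resistant cells, and 251 fell in parental and rose in resistant cells, each with a called interaction. These opposite responses were small. The median of the smaller of a gene's responses was 0.13 log2 units in the first class and 0.16 in the second, and both responses passed 0.25 log2 units in 30 and 48 genes. Scaled on the 8812 genes the classes held 572 and 513 genes, and 448 and 227 genes had the same class in all scalings tried. Responses called in a single line were also frequent. A parental response without a called resistant response, beside a called interaction, was found in 1330 genes that rose and 490 that fell, and the reverse in 370 genes that rose and 722 that fell. Beside a called interaction, 740 genes changed in the same direction in both lines with the larger change in parental cells, and 575 with the larger change in resistant cells.

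Interferon effectors had the lowest median interaction of the 50 gene lists examined. Of 45 at or above the minimum, 41 had a lower interaction and none a higher one. All 45 fell in resistant cells, while in parental cells 22 fell and 8 rose. Among all genes 46.8% had a lower and 18.7% a higher interaction. In resistant cells 38.1% of all genes fell, and in parental cells 24.6% fell and 50.5% rose. Their median change was -1.39 log2 units in resistant and -0.18 in parental cells, and their median interaction relative to all genes was -0.98. Summed over the list, the level was between 1848.0 and 1959.5 CPM in the 4 parental libraries, 6503.5 and 6567.1 in resistant untreated cells, and 3015.3 and 2967.3 in resistant indisulam cells. The resistant untreated libraries were highest, and those on the drug stayed above the parental ones. The list held 63 genes, and the other 18 were tested below the minimum, of which 14 had a lower and 1 a higher interaction. Of the 45, 14 were under 10 CPM in both parental groups and reached the minimum through the resistant line, so that a difference was built into their choice. The 28 effectors at 10 CPM or more in every group gave 26 lower interactions and a median interaction of -0.84 log2 units, not taken relative to all genes, against -1.08 for the 45 on the same scale.

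**Figure D2:**
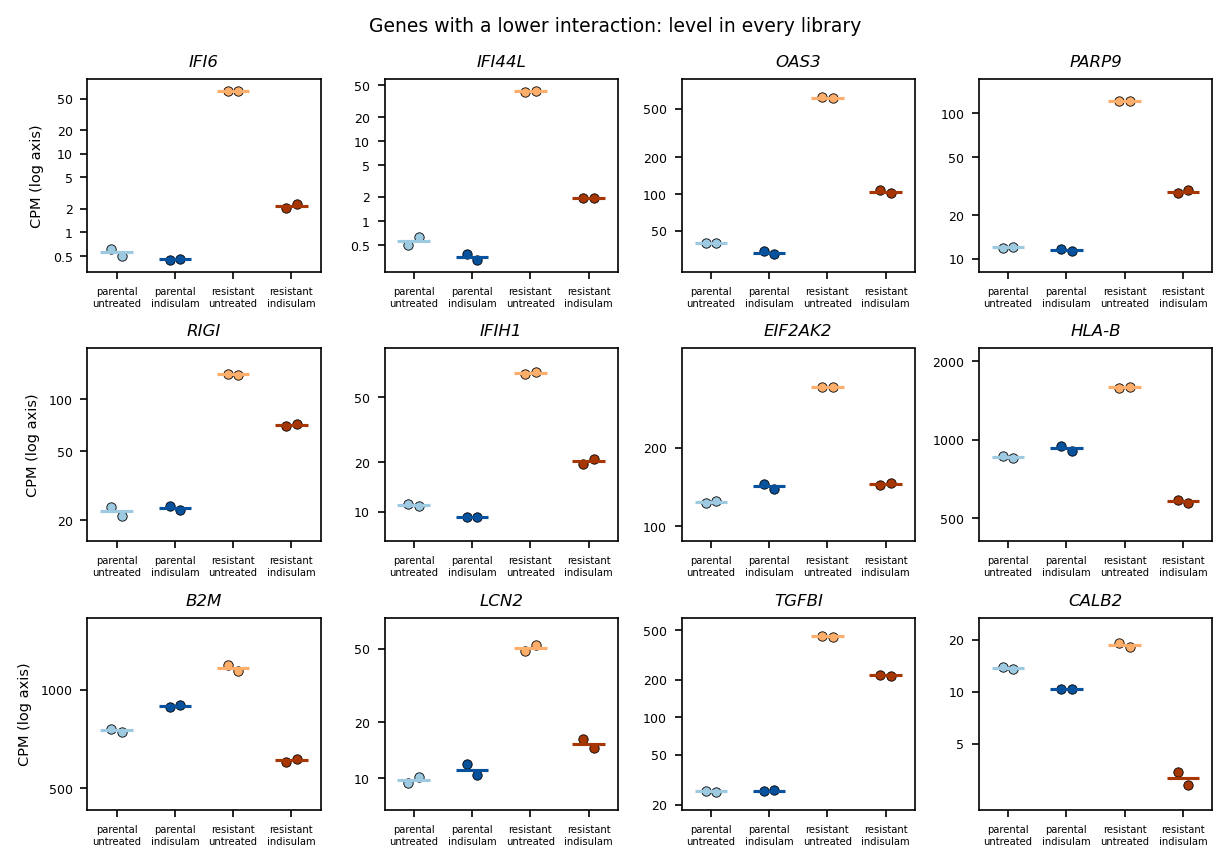
Level of 12 genes with a lower interaction in each of the 8 libraries, as CPM on log axes that differ between panels, with points for libraries and bars for group means. In each panel the resistant untreated libraries are highest, and for HLA-B, B2M and CALB2 the resistant libraries on the drug are the lowest.

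Promoters of the effectors with the lowest interactions are shown because most carry the DNA element through which interferon is known to act. Of the 45 effectors 38 had a promoter in the RefSeq set (GRCh38.p14, 250 bases before to 50 after the start). In 27 of these 38 (71.05%) a search on both strands found the interferon-stimulated response element, spelled here as GAAA, any 2 bases and GAAA, against 3.648% of all 27305 promoters and 2.754% of the 7262 matched to the 8812 genes. The gamma-activated site, spelled TTCNNNGAA, was found in 11 (28.95%) against 7.881% of all promoters, and in 3 promoters it shared bases with a response element. The promoters below run 5′ to 3′ with response elements in capitals, 3 in IFI6 and 2 in each of the others. The windows of OAS1 and PARP9 did not hold these letters, and OAS2 had no entry.
IFI6 (chr1:27672143-27672442, minus strand): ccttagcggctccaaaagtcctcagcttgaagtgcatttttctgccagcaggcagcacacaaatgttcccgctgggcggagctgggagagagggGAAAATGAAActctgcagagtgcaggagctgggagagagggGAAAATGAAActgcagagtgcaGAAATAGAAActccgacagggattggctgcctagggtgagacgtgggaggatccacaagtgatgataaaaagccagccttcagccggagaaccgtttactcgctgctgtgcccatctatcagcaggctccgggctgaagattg
IFI27 (chr14:94110486-94110785, plus strand): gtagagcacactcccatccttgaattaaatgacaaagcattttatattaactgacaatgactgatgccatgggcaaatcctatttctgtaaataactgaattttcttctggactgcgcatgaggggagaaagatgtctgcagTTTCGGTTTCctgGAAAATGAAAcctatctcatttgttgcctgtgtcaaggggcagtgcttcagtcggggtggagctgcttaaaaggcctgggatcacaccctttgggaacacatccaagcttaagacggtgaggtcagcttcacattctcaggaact
IFI44L (chr1:78620198-78620497, plus strand): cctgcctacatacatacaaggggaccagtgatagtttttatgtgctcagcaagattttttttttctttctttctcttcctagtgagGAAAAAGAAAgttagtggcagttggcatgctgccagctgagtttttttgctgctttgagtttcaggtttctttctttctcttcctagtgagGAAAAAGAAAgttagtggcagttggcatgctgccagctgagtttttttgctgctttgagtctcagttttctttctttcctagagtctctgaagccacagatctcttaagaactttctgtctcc
OAS3 (chr12:112938224-112938523, plus strand): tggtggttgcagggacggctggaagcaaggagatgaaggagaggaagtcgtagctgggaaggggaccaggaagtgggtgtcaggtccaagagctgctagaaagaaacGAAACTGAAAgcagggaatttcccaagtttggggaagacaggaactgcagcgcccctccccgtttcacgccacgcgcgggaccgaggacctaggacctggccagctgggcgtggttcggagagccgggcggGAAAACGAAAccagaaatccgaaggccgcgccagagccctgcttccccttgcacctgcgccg
IFITM1 (chr11:313790-314089, plus strand): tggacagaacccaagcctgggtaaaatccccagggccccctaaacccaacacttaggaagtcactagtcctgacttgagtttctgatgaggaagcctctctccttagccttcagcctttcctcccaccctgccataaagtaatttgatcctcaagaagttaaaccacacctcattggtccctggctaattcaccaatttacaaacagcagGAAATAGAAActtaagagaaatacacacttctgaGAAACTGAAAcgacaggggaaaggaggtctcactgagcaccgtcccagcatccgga

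OAS3 (ENSG00000111331, chromosome 12, 112938051 to 112976460, plus strand), an enzyme whose product activates RNase L, was expressed in both lines. It was at 39.7 and 39.96 CPM without and 34.1 and 32.3 CPM with the drug in parental cells, and at 617 and 609.5 CPM without and 108 and 102 CPM with it in resistant cells, with no overlap between any groups. It fell by 0.26 log2 units (SE 0.036) in parental and fell by 2.55 (SE 0.032) in resistant cells, an interaction of -2.29 (SE 0.048, adjusted p 5.1e-20). IFITM1 (ENSG00000185885, chromosome 11, 310041 to 315272, plus strand), a membrane protein that restricts virus entry, was at 1.44 and 1.43 CPM without and 1.73 and 1.32 CPM with the drug in parental cells, and at 54.9 and 52.6 CPM without and 12.98 and 10.8 CPM with it in resistant cells. Its resistant groups did not overlap, whereas its parental groups did. Its interaction was -2.27 (SE 0.19, adjusted p 4.8e-07), with a parental change of 0.08 that did not pass the test. IFI6, IFI27, IFI44L, OAS1 and OAS2 were likewise under 2 CPM in every parental library, so that they entered through the resistant line. PARP9 (ENSG00000138496, chromosome 3, 122527924 to 122564577, minus strand), a partner of the ubiquitin ligase DTX3L, was at 11.9 and 12.1 CPM without and 11.7 and 11.4 CPM with the drug in parental cells, and at 121 and 122 CPM without and 28.3 and 29.6 CPM with it in resistant cells. DTX3L overlaps it on the opposite strand and held 73% of the reads of the pair, so its count is uncertain.

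Among the sensors and signalling proteins of the interferon pathway the responses were mixed. Of 21 genes 11 had a lower and 5 a higher interaction, against 46.8% and 18.7% of all genes, and the relative median was -0.04. IFIH1, which detects double-stranded RNA in the cytosol, fell by 0.25 in parental and fell by 1.78 in resistant cells. RIGI, a sensor of the same family, fell by 0.97 in resistant cells, with a parental change of 0.06 that did not pass the test. ADAR, which edits adenosine to inosine in such RNA, rose by 0.16 in parental and fell by 0.65 in resistant cells. The RNA-activated kinase EIF2AK2, listed with the translation factors, rose by 0.20 in parental cells and fell by 1.23 in resistant cells, from 342 and 340.4 to 144 and 147 CPM against 123 and 125 in parental untreated cells.

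Antigen presentation differed between the lines in the same direction, with smaller changes. Of 20 genes 17 had a lower and none a higher interaction, against 46.8% and 18.7% of all genes, and the relative median was -0.33. In resistant cells 19 fell, against 38.1% of all genes. In parental cells 8 rose and 6 fell, and the sign of the parental median changed with the scaling. Of the 20, 2 were under 10 CPM in both parental groups and reached the minimum through the resistant line. The 18 at 10 CPM or more in every group gave 16 lower interactions. Their median interaction was -0.46 log2 units, not taken relative to all genes, against -0.44 for the 20. HLA-B (ENSG00000234745, chromosome 6, 31353872 to 31367067, minus strand), a class I heavy chain, was at 868 and 855 CPM without and 946 and 909 CPM with the drug in parental cells, and at 1575.1 and 1601.5 CPM without and 589 and 573 CPM with it in resistant cells. Off the drug the resistant line was above the parental line, and on the drug it was below. The interaction was -1.56 (SE 0.041, adjusted p 5.1e-18); HLA-B rose by 0.11 in parental and fell by 1.45 in resistant cells. Class I genes resemble each other closely, so that reads may be split between them. B2M (ENSG00000166710, chromosome 15, 44711358 to 44718851, plus strand), the light chain that class I molecules share, was at 758 and 744 CPM without and 882 and 894 CPM with the drug in parental cells, and at 1184.5 and 1141.4 CPM without and 602 and 614 CPM with it in resistant cells, and no groups overlapped. Its interaction was -1.18 (SE 0.041, adjusted p 3.6e-16). The immunoproteasome subunit PSMB8 fell by 0.69 in resistant cells, with a parental change of 0.04 that did not pass the test (interaction -0.73, adjusted p 3.4e-11).

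By interaction, the response element was present in 19 of 41 promoters (46.34%) of genes at or below -1 log2 units, in 5.446% of those between -1 and -0.5, and in 0.7722% of those above 0.5. Of the 47 genes past 1 log2 unit in the lower direction, 32 (68.09%) belonged to the interferon effector, sensor or antigen presentation lists, and of the 45 in the higher direction 0 did. All 47 fell in resistant cells, and resistant untreated was the highest group in 46. In parental cells 15 of the 47 rose and 17 fell. The 47 were picked on this same interaction, and the lists were chosen with earlier results of these data known. Of the listed genes, 14 effectors and 2 antigen presentation genes reached the minimum through the resistant line. Part of these shares was therefore built in, and they are given as a description.

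Opposite responses with a rise in parental cells were led by genes outside the large machineries. SAMHD1 (ENSG00000101347, chromosome 20, 36890229 to 36951893, minus strand), which depletes nucleotides and restricts retroviruses, was at 56.6 and 56.97 CPM without and 84.1 and 81.9 CPM with the drug in parental cells, and at 199.9 and 198 CPM without and 104 and 106 CPM with it in resistant cells. It rose by 0.55 (SE 0.03) in parental and fell by 0.92 (SE 0.028) in resistant cells, an interaction of -1.47 (adjusted p 8.6e-18). On the drug the lines stood closer together than off it. TRIM69, of the tripartite motif family of ubiquitin ligases, rose by 0.45 in parental and fell by 1.10 in resistant cells (interaction -1.55, adjusted p 2.9e-14). ALDH1A3, which makes retinoic acid, rose from 31.4 and 31.6 to 57.9 and 50.01 CPM in parental cells and fell from 117 and 120.2 to 82.6 and 85.2 CPM in resistant cells. INHBA, a subunit of activin, rose by 0.55 and fell by 0.54, from a parental untreated level of 1.43 and 1.46 CPM (interaction -1.09, adjusted p 4.6e-08). It was under 3 CPM in every parental library and reached the minimum through the resistant line. GPAT3, an acyltransferase of glycerolipid synthesis, and FAM3C, a secreted protein, complete the 6 genes with the largest opposite response of this direction, with interactions of -0.81 and -0.79.

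**Figure D3:**
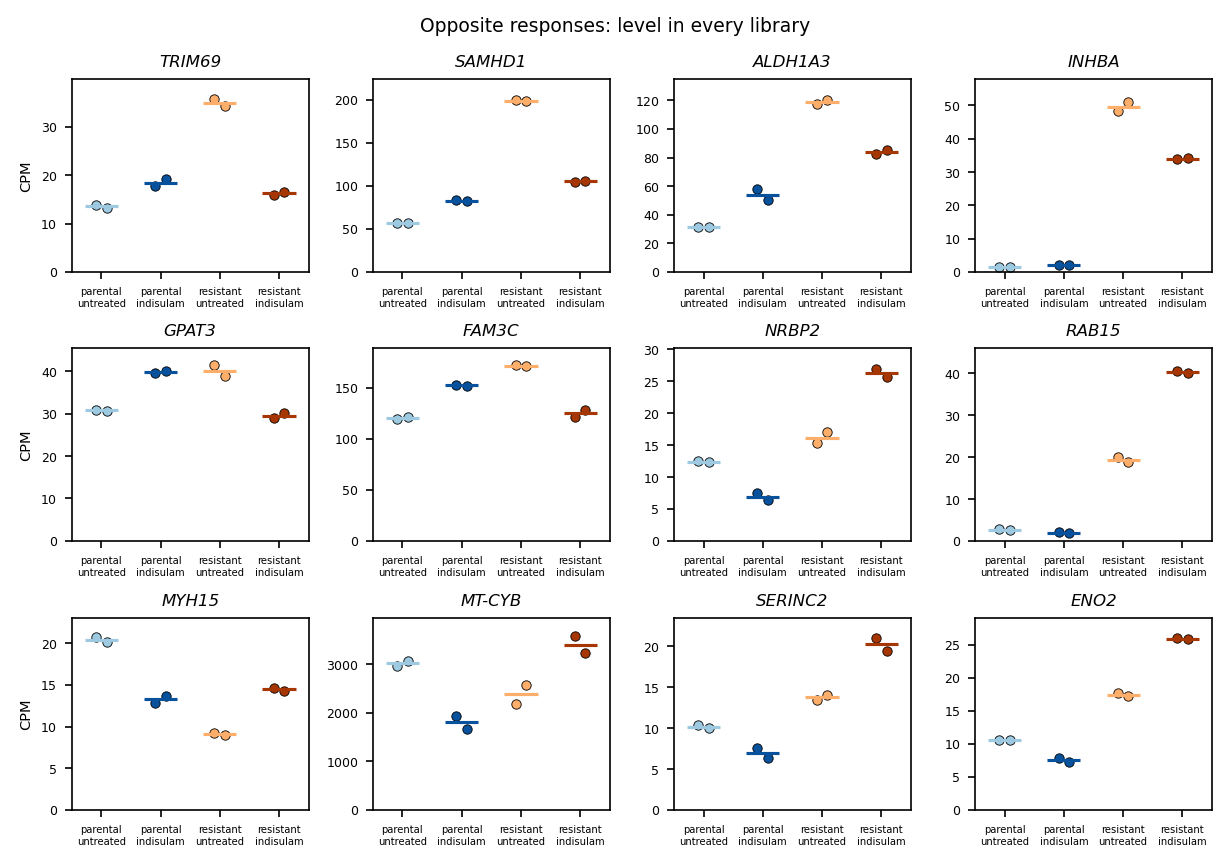
Level in each of the 8 libraries, as CPM on axes that start at 0, for the 6 genes with the largest opposite response in each direction, with points for libraries and bars for group means. The genes from TRIM69 to FAM3C rise with the drug in parental and fall in resistant cells, and those from NRBP2 to ENO2 do the reverse.

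Transcripts of the mitochondrial genome, which encodes core subunits of the respiratory chain, differed in the other direction. All 13 had a higher interaction, between 0.63 and 1.26 log2 units, and the relative median was 1.01. In parental cells 12 fell, against 24.6% of all genes. In resistant cells 4 rose, near the 26.5% of all genes, and 9 were not called. An opposite response was called in 3 of the 13. Among all genes 18.7% had a higher interaction. MT-CYB, cytochrome b of complex III, was at 2978.5 and 3067.6 CPM without and 1946.5 and 1661.4 CPM with the drug in parental cells, and at 2177.4 and 2584.1 CPM without and 3579.1 and 3237.4 CPM with it in resistant cells. The treated parental libraries were lowest and the treated resistant libraries highest. It fell by 0.74 (SE 0.13) and rose by 0.52 (SE 0.13), an interaction of 1.26 (SE 0.18, adjusted p 0.005). MT-ATP8 was opposite as well (interaction 1.22, adjusted p 0.00021), but MT-ATP6 overlaps it on the same strand and held 87.2% of the reads of the pair.

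Nuclear genes that supply the same organelle had mostly lower interactions. Of 74 nuclear subunits of the respiratory chain 60 had a lower and 2 a higher interaction (relative median -0.19). Of 69 mitochondrial ribosomal proteins 56 had a lower and none a higher interaction (relative median -0.19). Among all genes 46.8% had a lower and 18.7% a higher interaction. Opposite responses, up in parental and down in resistant cells, were called in 38 and 30 of these genes, against 14.1% of all genes. Scaled on the 8812 genes, lower interactions were called in 50 and 44, against 29.7% of all genes. Opposite responses were then called in 15 and 19, against 6.49% of all genes. NDUFA4, listed with the respiratory chain, was at 169.8 and 169 CPM without and 184 and 189 CPM with the drug in parental cells, and at 148 and 140.3 CPM without and 111 and 113 CPM with it in resistant cells, with no overlap within either line. NDUFB5, a subunit of complex I, rose by 0.23 and fell by 0.29 (interaction -0.52, adjusted p 2.3e-09). MRPL24, of the large mitochondrial ribosomal subunit, rose by 0.11 and fell by 0.59 (interaction -0.69, adjusted p 5.4e-11).

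Cytosolic ribosomal proteins more often had opposite responses, up in parental and down in resistant cells, than genes in general. Of 80 genes 70 rose in parental cells, 72 fell in resistant cells, and 66 were called opposite, against 14.1% of all genes. Scaled on the 8812 genes, 43 were called opposite, against 6.49% of all genes. Their median changes were small, at 0.06 in parental and -0.15 in resistant cells relative to all genes. A lower interaction was called in 75, and in 71 with the libraries scaled on the 8812 genes, against 46.8% and 29.7% of all genes. RPS18, of the small subunit, was at 1656.3 and 1621.1 CPM without and 1839.3 and 2024.0 CPM with the drug in parental cells, and at 1604.9 and 1520.8 CPM without and 1286.2 and 1290.0 CPM with it in resistant cells. Neither line's groups overlapped, and the interaction was -0.52 (SE 0.055, adjusted p 1.1e-06). Ribosomal protein genes have many near-identical pseudogene copies, so such counts are uncertain.

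The rest of the protein synthesis and turnover machinery also had mostly lower interactions. They were called in 39 of 45 ribosome biogenesis genes, 17 of 20 aminoacyl-tRNA synthetases, 39 of 58 translation factors, 32 of 34 proteasome subunits and all 12 chaperonin and prefoldin genes, against 46.8% of all genes. Scaled on the 8812 genes these counts were 33, 11, 27, 27 and 12, against 29.7% of all genes. Of the 34 proteasome genes 2 were under 10 CPM in both parental groups and reached the minimum through the resistant line. The 32 at 10 CPM or more in every group gave 31 lower interactions. The helicase DDX18 rose by 0.32 and fell by 0.12, and fibrillarin, FBL, the methyltransferase of ribosomal RNA, rose by 0.13 and fell by 0.31. PSMD6, of the proteasome regulatory particle, was at 62.1 and 61.6 CPM without and 79.8 and 79.3 CPM with the drug in parental cells, and at 61.95 and 61.1 CPM without and 54.5 and 56.9 CPM with it in resistant cells. Its untreated libraries lay together in both lines, and the treated libraries moved apart (interaction -0.51, SE 0.045, adjusted p 6.2e-09). PFDN2, a subunit of prefoldin, which hands nascent actin and tubulin to the chaperonin, rose by 0.23 and fell by 0.30.

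Heat shock and antioxidant genes mostly had lower interactions. Rises were more frequent in parental cells in all genes, at 50.5% against 26.5% in resistant cells. The heat shock list, named as cytosolic, also held the mitochondrial chaperonins HSPD1 and HSPE1. Of its 22 genes 16 rose and 2 fell in parental cells, 3 rose and 9 fell in resistant cells. A lower interaction was called in 19 (relative median -0.20). HSP90AB1, a constitutive form of HSP90, was at 3928.4 and 3953.7 CPM without and 4441.6 and 4634.3 CPM with the drug in parental cells, and at 4324.2 and 4143.2 CPM without and 3648.6 and 3627.7 CPM with it in resistant cells (interaction -0.42, adjusted p 4.9e-08). Of 24 targets of NRF2, the regulator of antioxidant genes, 20 rose and 2 fell in parental cells, 7 rose and 13 fell in resistant cells, and 20 had a lower interaction, against 46.8% of all genes (relative median -0.22). TXNRD1, a thioredoxin reductase, rose by 0.36 and fell by 0.22, and TKT, of the pentose phosphate pathway, rose by 0.32 and fell by 0.23. HMOX1, which degrades heme, was the exception and rose by 0.65 in parental and rose by 1.30 in resistant cells (interaction 0.65, adjusted p 3.2e-06).

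**Figure D4:**
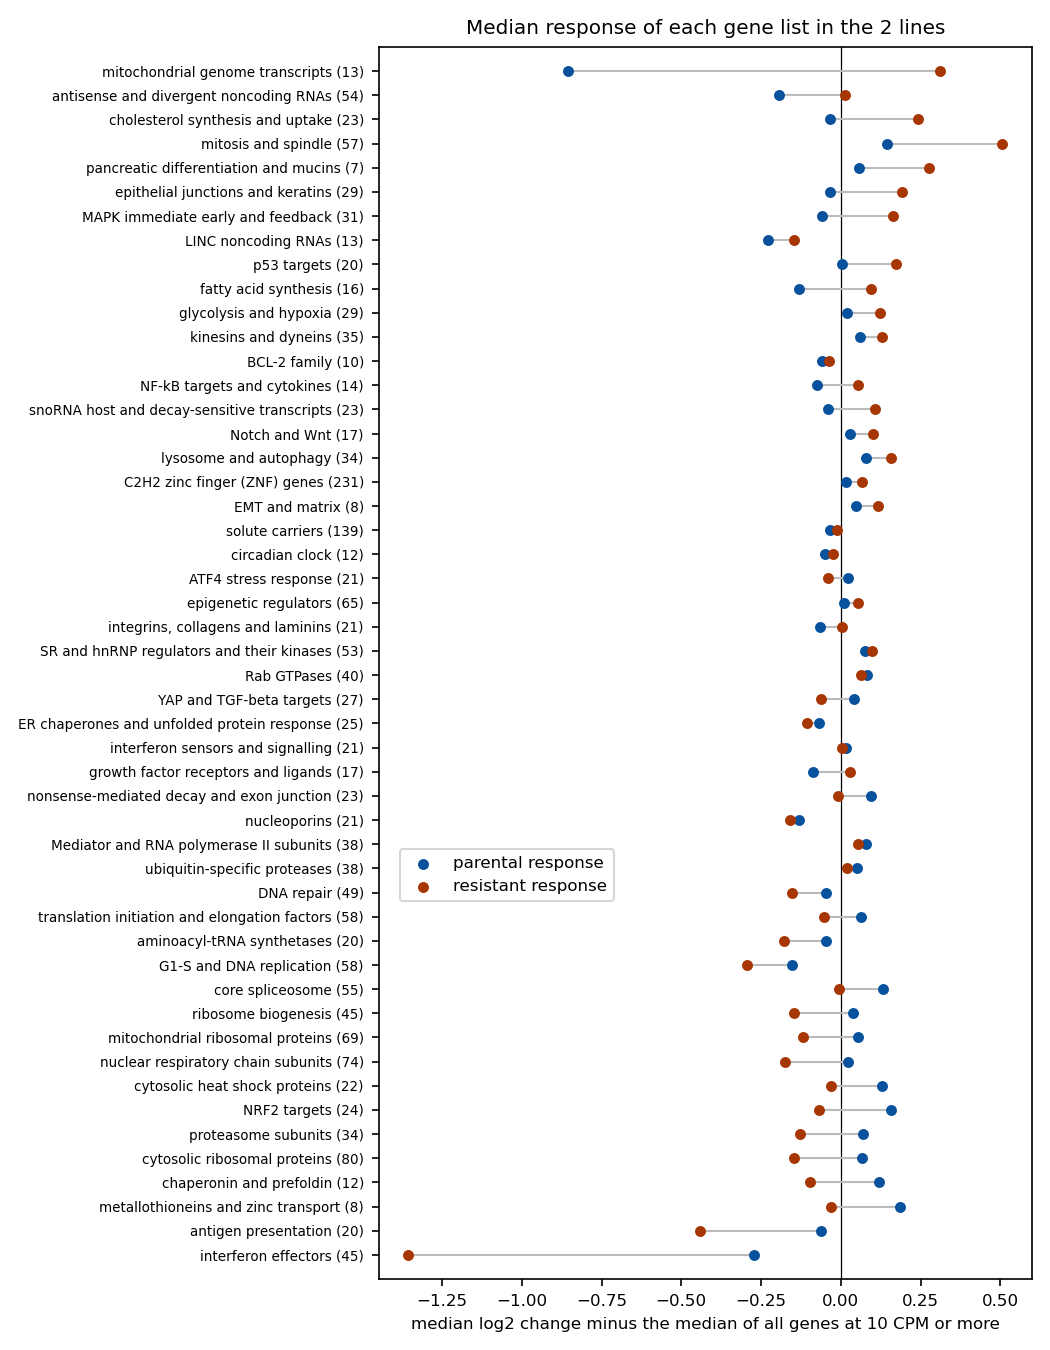
Median log2 change of each of the 50 gene lists in parental (blue) and resistant (brown) cells, relative to the median of all 8812 genes, sorted by the relative median interaction, with the number of genes in brackets. The ends of the order are mitochondrial genome transcripts (relative interaction 1.01) and interferon effectors (-0.98), and most other lists lie much closer to all genes.

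Cell cycle genes split by phase. Of 57 genes of mitosis and the spindle, 42 rose and 9 fell in parental cells, 49 rose and 3 fell in resistant cells, and 43 had a higher and 2 a lower interaction, against 18.7% and 46.8% of all genes (relative median 0.30). CDC25B, a phosphatase that promotes entry into mitosis, was at 122 and 120.5 CPM without and 142 and 142 CPM with the drug in parental cells, and at 65.3 and 64.9 CPM without and 125 and 123 CPM with it in resistant cells. The resistant untreated libraries were lowest (interaction 0.70, SE 0.04, adjusted p 4.6e-12). ESPL1, the protease separase, fell by 0.30 in parental and rose by 0.48 in resistant cells. CENPK, of the kinetochore, fell by 0.86 in parental and fell by 0.28 in resistant cells. In the promoters of this list the cell cycle homology region, spelled TTTGAA, was found in 34 of 48 (70.83%) against 9.309% of the 7262 promoters, and the CCAAT box in 35 (72.92%) against 37.52%. The motifs shared bases in 2 promoters. These shares describe a list chosen as cell cycle genes. Sorted by interaction, TTTGAA was in 10.81% of promoters of genes above 0.5 log2 units. It was in 9.901% of those between -1 and -0.5, and in 2 of 41 at or below -1. The CCAAT box was in 33.59%, 40.1% and 43.9% of the same bins.

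Genes of the G1-S transition and DNA replication had mostly lower interactions. Of 58 genes 49 fell and 1 rose in resistant cells, 26 fell and 13 rose in parental cells, and 40 had a lower and 2 a higher interaction, against 46.8% and 18.7% of all genes (relative median -0.14). MCM6, of the replicative helicase, was at 176 and 178 CPM without and 165 and 166 CPM with the drug in parental cells, and at 241 and 237 CPM without and 146 and 148 CPM with it in resistant cells and its resistant groups lay further apart than its parental ones (interaction -0.60, SE 0.039, adjusted p 3.1e-11). ORC1, of the origin recognition complex, rose by 0.24 and fell by 0.34. Of 49 DNA repair genes 35 fell in resistant cells, against 38.1% of all genes. A lower interaction was called in 30 and a higher one in 5 (relative median -0.096). Scaled on the 8812 genes these counts were 20 and 10, against 29.7% and 30.1% of all genes. EXO1, an exonuclease of mismatch repair, had an interaction of -0.48. The helicase PIF1 ran against the list, from 14.4 and 16.5 to 38.1 and 37.4 CPM in resistant cells, with 36.4 and 37.2 and then 33.5 and 35.4 CPM in parental cells (interaction 1.39, SE 0.067, adjusted p 1.9e-12).

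Splicing genes, the neighbours of the drug target, differed by class. Of 55 core spliceosome genes 46 rose and 3 fell in parental cells, 13 rose and 22 fell in resistant cells, and 45 had a lower interaction (relative median -0.16). Among all genes 50.5% rose in parental cells, 26.5% rose and 38.1% fell in resistant cells, and 46.8% had a lower interaction, so that the resistant counts of this list were near those of all genes. SNRPB2, a U2 snRNP protein, was at 47.9 and 47.7 CPM without and 61.01 and 62.6 CPM with the drug in parental cells, and at 79.8 and 76.3 CPM without and 68.6 and 68.3 CPM with it in resistant cells, a rise in parental and a fall in resistant cells (interaction -0.56, adjusted p 1.6e-09). Of 53 SR and hnRNP regulators and their kinases 27 had a lower and 8 a higher interaction, with a relative median of -0.01. Scaled on the 8812 genes these counts were 14 and 15, against 29.7% and 30.1% of all genes. SRSF5, an SR protein, was at 252 and 256 CPM without and 159 and 158 CPM with the drug in parental cells, and at 212 and 229 CPM without and 222 and 216 CPM with it in resistant cells. Its parental groups were apart and its resistant groups overlapped (interaction 0.67, SE 0.045, adjusted p 1.1e-10). HNRNPC was the reverse and rose by 0.47 in parental cells, whereas it fell by 0.07 in resistant cells. RBM39 itself had an interaction of -0.18 (adjusted p 0.00087), which did not pass the test with library totals or with either scaling on the 8812 genes.

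Long noncoding RNAs more often had a higher interaction. Of 131 this was so for 64 (48.85%, against 18.7% of all genes), and 26 had a lower one. Among 54 antisense and divergent RNAs 27 fell and 9 rose in parental cells, 28 had a higher and 10 a lower interaction, and the relative median was 0.31. The other 17 of the 54 reached the minimum through some of the groups. The 37 at 10 CPM or more in every group gave 15 higher and 9 lower interactions and a median interaction of 0.06 log2 units, not taken relative to all genes, against 0.20 for the 54. NEAT1 (ENSG00000245532, chromosome 11, 65422774 to 65445540, plus strand), the scaffold of nuclear paraspeckles, was at 156 and 162 CPM without and 59.7 and 59.05 CPM with the drug in parental cells, and at 131 and 194 CPM without and 165 and 163 CPM with it in resistant cells. Its parental groups were far apart, whereas its resistant untreated libraries lay on either side of the treated ones, and the interaction was 1.44 (SE 0.28, adjusted p 0.015). The NEAT1 call was lost with 5 of the 8 libraries left out in turn, at adjusted p between 0.05 and 0.057. RAB30-DT fell by 1.20 in parental and fell by 0.22 in resistant cells (interaction 0.98, adjusted p 4.5e-10).

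Some hosts of small nucleolar RNAs fell in parental cells alone. SNHG32 fell by 0.54 in parental cells, and its resistant change of 0.09 did not pass the test (interaction 0.63, adjusted p 2.9e-07). SNHG12 fell by 0.68 with a resistant change of 0.13, but TRNAU1AP on the opposite strand held 39.9% of the reads of that pair. In the list of 23 hosts and decay-sensitive transcripts 8 had a higher and 8 a lower interaction, against 18.7% and 46.8% of all genes. Among protein-coding genes RGL3, a Ral exchange factor, fell by 1.05 in parental cells (interaction 1.31, adjusted p 0.0029), and ATG16L2 fell by 1.43 (interaction 1.45, adjusted p 0.0043). For ATG16L2 the opposite-strand gene FCHSD2 held 50.2% of the reads of the pair. Of the 45 genes past 1 log2 unit in the higher direction 42 fell in parental cells, 19 rose in resistant cells, 5 were mitochondrial, and 11 were noncoding RNAs or pseudogenes. Parental indisulam was the lowest group in 36 of them.

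Cholesterol genes mostly had higher interactions. Of 23 genes of cholesterol synthesis and uptake 15 rose and 2 fell in resistant cells, 9 rose and 9 fell in parental cells, and 13 had a higher and 1 a lower interaction, against 18.7% and 46.8% of all genes (relative median 0.30). INSIG1, which holds the sterol sensor in the endoplasmic reticulum, was at 56.8 and 53.01 CPM without and 57.7 and 56.9 CPM with the drug in parental cells, and at 18.8 and 15.7 CPM without and 29.5 and 30.7 CPM with it in resistant cells. It rose by 0.80 in resistant cells, where it stayed under the parental level (interaction 0.74, SE 0.092, adjusted p 8.2e-05). MVD, of the mevalonate pathway, fell by 0.13 in parental and rose by 0.59 in resistant cells. SCD, which desaturates fatty acids, fell by 0.11 and rose by 0.55 (interaction 0.66, adjusted p 4.9e-11). Summed over the cholesterol list, the resistant line held 1999.3 to 2258.1 CPM and the parental line 3299.5 to 3512.0.

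Several stress, inflammatory and immediate early genes rose more in resistant cells. ATF3, a stress-induced transcription factor, was at 14.4 and 14.2 CPM without and 16.2 and 17.2 CPM with the drug in parental cells, and at 8.65 and 8.69 CPM without and 20.1 and 19.3 CPM with it in resistant cells (interaction 0.97, SE 0.072, adjusted p 3.1e-10). DUSP1, a phosphatase of MAP kinases, rose by 0.17 in parental and rose by 1.04 in resistant cells. TNFAIP3, an inhibitor of NF-kB, went from 30.04 and 30.6 to 50.2 and 49.2 CPM in resistant cells, with a parental change of -0.02 that did not pass the test (interaction 0.73, adjusted p 7.9e-10). Other genes of these lists moved the other way. LCN2, a siderophore-binding protein, was at 9.43 and 10.14 CPM without and 11.9 and 10.4 CPM with the drug in parental cells, and at 48.8 and 52.7 CPM without and 16.2 and 14.5 CPM with it in resistant cells, and resistant untreated cells stood far above the rest (interaction -1.91, SE 0.1, adjusted p 8.2e-09). DUSP6, a feedback inhibitor of ERK, rose by 0.17 and fell by 0.44. Higher interactions were called in 6 of 14 NF-kB targets, 6 of 21 ATF4 targets and 12 of 31 immediate early and feedback genes. Lower ones were called in 6, 10 and 10. Among all genes 18.7% had a higher and 46.8% a lower interaction. The relative medians of these lists were 0.10, 0.02 and 0.20.

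Some targets of TGF-beta and YAP, among them TGFBI and THBS1, had a lower interaction, although the list as a whole lay near all genes. Of 27 genes 15 had a lower and 2 a higher interaction, against 46.8% and 18.7% of all genes, and the relative median was -0.02. TGFBI, a secreted matrix protein induced by TGF-beta, was at 25.7 and 25.3 CPM without and 25.5 and 25.9 CPM with the drug in parental cells, and at 450.0 and 441 CPM without and 218 and 215 CPM with it in resistant cells. Its parental change of 0.01 did not pass the test, and it fell by 1.04 in resistant cells (interaction -1.05, SE 0.045, adjusted p 1.6e-14). THBS1, thrombospondin, rose by 0.21 in parental and fell by 0.64 in resistant cells. CCN2, a YAP target, rose by 0.32 and fell by 0.48. CALB2, a calcium-binding protein outside the lists, was at 13.9 and 13.5 CPM without and 10.4 and 10.4 CPM with the drug in parental cells, and at 19.2 and 18.1 CPM without and 3.46 and 2.9 CPM with it in resistant cells, lowest in treated resistant cells (interaction -2.17, SE 0.092, adjusted p 1.6e-14).

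Genes of epithelial junctions had more higher than lower interactions. Of 29 junction and keratin genes 15 had a higher and 6 a lower interaction, against 18.7% and 46.8% of all genes (relative median 0.24). CGN, cingulin of tight junctions, was at 112 and 112 CPM without and 78 and 74.5 CPM with the drug in parental cells, and at 132 and 135 CPM without and 164 and 158 CPM with it in resistant cells. It fell by 0.55 in parental and rose by 0.27 in resistant cells (interaction 0.83, adjusted p 1.1e-12). CDH3, P-cadherin, fell by 0.61 and rose by 0.19. COL17A1 (ENSG00000065618, chromosome 10, 104031286 to 104085880, minus strand), a collagen of hemidesmosomes, was at 33.4 and 33.5 CPM without and 27.9 and 26.6 CPM with the drug in parental cells, and at 14.2 and 14.4 CPM without and 31.1 and 29.99 CPM with it in resistant cells, with resistant untreated cells lowest (interaction 1.39, SE 0.058, adjusted p 1.3e-14). ITGB4, an integrin of hemidesmosomes, fell by 0.45 and rose by 0.22, whereas the laminin LAMA3 fell by 0.66 in resistant cells with a parental change of 0.01 that did not pass the test.

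Opposite responses with a fall in parental cells were led by NRBP2, a pseudokinase, which fell by 0.84 and rose by 0.70. MYH15, a myosin heavy chain, was at 20.8 and 20.1 CPM without and 12.9 and 13.7 CPM with the drug in parental cells, and at 9.18 and 8.96 CPM without and 14.6 and 14.3 CPM with it in resistant cells, and the treated libraries of the lines lay closer together than the untreated ones. SERINC2 fell by 0.56 and rose by 0.55. ENO2, the neuronal enolase of glycolysis, fell by 0.49 and rose by 0.57 (interaction 1.06, SE 0.071, adjusted p 5.4e-11). RAB15, a small GTPase of endosomes, fell by 0.47 from 2.84 and 2.59 CPM in parental cells and rose by 1.06 from 19.97 and 18.7 CPM in resistant cells, and with MT-CYB it completes the 6 genes of this direction. RAB15 likewise reached the minimum through the resistant line.

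The remaining lists were divided. Higher and lower interactions numbered 10 and 9 of 29 for glycolysis and hypoxia, 7 and 4 of 20 for p53 targets, 15 and 26 of 65 for epigenetic regulators, 9 and 13 of 34 for lysosome and autophagy, and 2 and 14 of 25 for endoplasmic reticulum chaperones. Among all genes 18.7% had a higher and 46.8% a lower interaction. Scaled on the 8812 genes, higher interactions outnumbered lower ones for epigenetic regulators (22 and 7) and for lysosome and autophagy (14 and 7). DNMT3B, a DNA methyltransferase, had the largest interaction among the epigenetic regulators and fell by 0.15 in parental and rose by 0.79 in resistant cells. Core motifs for hypoxia (NACGTGN), antioxidant (TGACNNNGC), amino acid (TGATGNAA) and NF-kB (GGGNNTTCC) responses were searched in the promoters of their lists. They were found in 10 of 26 (38.46%), 4 of 16 (25%), 3 of 18 (16.67%) and 3 of 9 (33.33%). Among the 7262 promoters the shares were 28.37%, 15.68%, 1.418% and 8.51%. All but the hypoxia share rest on 3 or 4 promoters, in lists chosen as targets of these responses.

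The interaction also varied with base composition. The median parental response went from 0.18 log2 units in genes of at most 40% GC to -0.09 in genes above 60%, while the median resistant response stayed between -0.06 and 0.00. The median interaction was -0.16 and 0.10 in the same end bins. Across the 8812 genes, which share libraries, Spearman's rho of GC content was -0.37 with the parental response, -0.04 with the resistant response and 0.28 with the interaction. Other measures of the libraries moved in opposite directions in the lines. From untreated to treated, the mean number of genes with at least 1 read changed by -1544.5 in parental and 1739 in resistant cells. That number depends on depth, and the mean reads assigned to genes changed by -28006823.5 and 9610144. The share of reads assigned to no gene changed by -1.336 and 1.082 percentage points. Their part in the interaction was not tested. With a correction for GC content and length, chosen after seeing the data, the relative medians were -0.28 for cytosolic ribosomal proteins, -0.41 for antigen presentation, 0.37 for mitosis and 0.86 for mitochondrial transcripts.

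**Figure D5:**
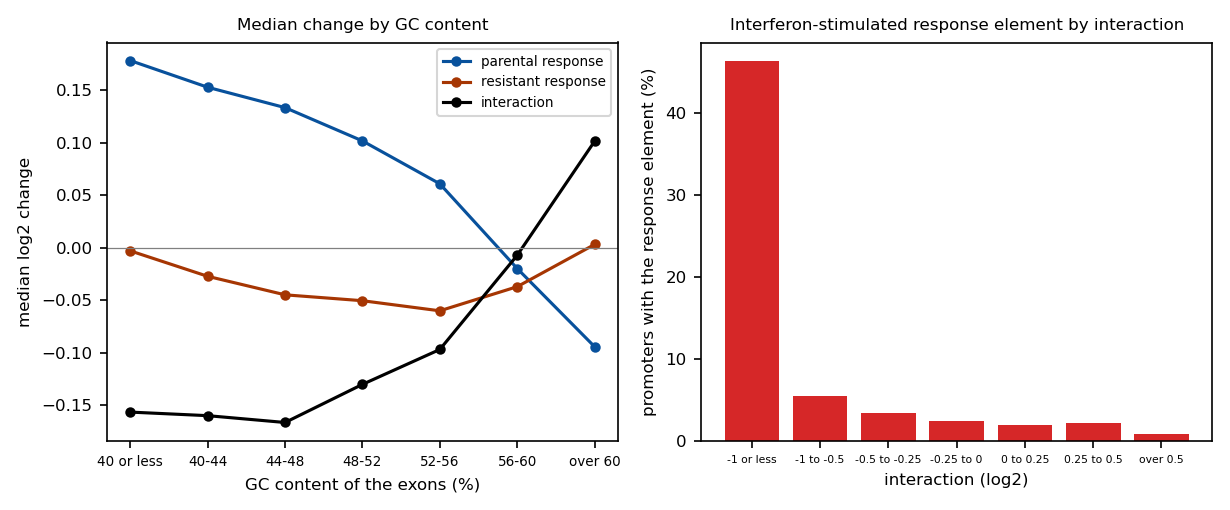
Left, median log2 change of the 8812 genes by GC content of their exons for each line and for the interaction, which is 0.10 above 60% GC. Right, percent of promoters with an interferon-stimulated response element by interaction (log2), 46.34% at -1 or less and 0.7722% above 0.5.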

How the data were processed

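PolyA-selected, strand-specific RNA-seq libraries were made from parental and resistant Panc10.05 cells with and without indisulam, with 2 technical replicates per group. The authors trimmed the reads and aligned them to GRCh38 with HISAT2 2.2.1, left out duplicates, and deposited raw read counts per gene. Picard and HTSeq are named in the submitters' processing notes without a role, and the strand setting and annotation release are not given in the sources used here. Rows that name no gene, such as reads without a hit (4.518% to 6.069% of a library), stayed out of totals and tests. Gene names and positions came from GENCODE 44, which matched 60419 of 60675 identifiers. Promoter sequences came from RefSeq.

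From the counts, genes that passed the expression filter of edgeR 4.0.16 (R 4.3.3) were scaled with TMM factors and fitted with 1 mean per group over all 8 libraries, leaving 4 residual degrees of freedom. The parental response, the resistant response and their difference were tested with the robust quasi-likelihood F-test, with Benjamini-Hochberg adjustment over the 16661 genes tested and a threshold of 0.05. SE is the size of the log2 value divided by the square root of F. Printed CPM use TMM-scaled totals, whereas the minimum of 10 CPM used plain totals. With 2 libraries against 2 no exact permutation test of a single value can reach 0.05.

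Genes were named by rule. These were up to 4 called genes of each list with the largest interaction (8 for interferon effectors), the 8 most positive and 8 most negative interactions with the same sign in both same-numbered differences, the 6 largest opposite responses in each direction, and RBM39 and DCAF15. Some genes named by this rule are not reported here. The members and lists were chosen with earlier results of these data known. Deviations of same-numbered libraries were correlated in some of the 6 pairs of groups, but with no constant sign. The r was 0.332 between the indisulam groups and -0.241 between the resistant groups. It was -0.363 between parental indisulam and resistant untreated cells. Replicate numbers were therefore not used as a block, and whether groups share a technical deviation was not tested. Alternatives included DESeq2 1.42.0, other scalings, thinning, a minimum effect, leaving out each library, and a correction for GC content and length.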

Additional observations from a re-analysis of the deposited data

Results flagged for a closer look

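The responses of the lines differed by the test of the interaction in 5776 of the 8812 genes. Of these, 1240 rose in parental and fell in resistant cells, and 251 did the reverse. The named genes with the lowest interactions, in log2 units, were IFI6 (-4.515), OAS1 (-3.916), IFI27 (-3.803), IFI44L (-3.765), OAS2 (-3.078), OAS3 (-2.287), IFITM1 (-2.27) and CALB2 (-2.174). Those with the highest were NRBP2 (1.544), RAB15 (1.521), SLC9A3-AS1 (1.52), ATG16L2 (1.447), NEAT1 (1.436), COL17A1 (1.389), PIF1 (1.385) and RGL3 (1.314). Among genes with opposite responses, TRIM69 (-1.552), SAMHD1 (-1.469), ALDH1A3 (-1.275), INHBA (-1.089), GPAT3 (-0.8138) and FAM3C (-0.7917) rose in parental cells, and MYH15 (1.294), MT-CYB (1.262), SERINC2 (1.111) and ENO2 (1.061) fell there.

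Some measures of the libraries changed in opposite directions with the drug in every pair of libraries, and this difference was not tested. Between the lines the change differed by 3283.5 genes with at least 1 read, a number that depends on depth. It differed by 2.418 percentage points in the share of reads assigned to no gene, and by 2.295 in the share of mitochondrial reads. Mean reads assigned to genes changed by -28006823.5 in parental and 9610144 in resistant cells, though not in opposite directions in every pair.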

How the results depend on the processing

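Of 4275 results for named genes under the alternatives 4087 kept their direction and side of the threshold, 186 no longer passed it (142 of them when tested against a minimum of 0.5 log2 units) and 2 reversed. The reversals were DCAF15 and NOTCH1 under the correction for GC content and length. By the quasi-likelihood test the interaction of DCAF15 was 0.19 (adjusted p 0.0062) in the main fit and -0.16 (adjusted p 0.0061) with the correction. It was thus called in both directions. NOTCH1 was at -0.052 with the correction and did not pass the test (adjusted p 0.37). The cause was not tested. Of 899 relative list medians 21 changed sign, in 11 lists.

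The counts by direction moved with the scaling. With library totals alone there were 2730 higher and 2506 lower interactions, 543 opposite responses up and 547 down in parental cells, 799 genes up and 741 down in parental cells alone, and 635 up in resistant cells alone. With only genes at 10 CPM or more in the fit the same counts were 2903, 2437, 501, 596, 706, 795 and 641, and with size factors from those genes, chosen after seeing the data, 2651, 2621, 572, 513, 795, 766 and 586. With an adjusted p under 0.01, opposite responses down in parental cells numbered 165.

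Tested against 0.5 log2 units, 226 interactions (112 higher, 114 lower), 269 parental and 286 resistant responses were called. Opposite responses numbered 2, with 0 up and 2 down in parental cells, and line-restricted ones 156, with 2 up and 50 down in parental cells alone and 26 up and 78 down in resistant cells alone. This construction asks for a larger effect.

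With the correction for GC content and length, also chosen after seeing the data, there were 1079 higher interactions, 2364 opposite responses (2232 up and 132 down in parental cells), 252 genes down in parental cells alone and 207 up in resistant cells alone. The relative medians were -0.41 for antigen presentation, -0.24 for NRF2 targets, 0.37 for mitosis, -0.13 for the core spliceosome, -0.062 for YAP and TGF-beta targets, -0.28 for cytosolic ribosomal proteins, -0.26 for the nuclear respiratory chain, 0.86 for mitochondrial transcripts, -0.25 for the proteasome and 0.25 for antisense RNAs. For NRF2 targets it was -0.22 with the DESeq2 Wald test and -0.20 with thinned libraries.

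With each library left out in turn, the relative medians ranged from -0.36 to -0.32 for antigen presentation, -0.24 to -0.20 for NRF2 targets, -0.997 to -0.92 for interferon effectors, -0.16 to -0.15 for the core spliceosome, 0.28 to 0.34 for mitosis, -0.26 to -0.21 for cytosolic ribosomal proteins, 0.89 to 1.12 for mitochondrial transcripts, -0.26 to -0.19 for the proteasome, -0.22 to -0.16 for the nuclear respiratory chain and 0.26 to 0.33 for antisense RNAs. Opposite responses down in parental cells ranged from 184 to 398, the latter without the second resistant untreated library.

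The replicate block gave 5735 interaction calls, 1632 higher and 4103 lower. Since libraries share only a number, this bears on no pairing.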
